A study of Rattus norvegicus with 8 samples.

Results

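The genes described here are 10 genes of the piRNA pathway (Piwil2, Piwil4, Tdrd1, Tdrd5, Tdrd9, Mov10l1, Mael, Pld6, Asz1 and Gtsf1), chosen by symbol among the 24059 genes of the deposited table. Each symbol had a single row, and all 10 genes passed the filter on low counts along with 16966 others. Transcripts were measured by polyA-enriched RNA sequencing of GFP-positive germ cells isolated from rat testis. The 4 doxorubicin rats (numbers 2, 3, 6 and 8) received the drug at 5 mg/kg on postnatal day 6, and the 4 control rats (numbers 1, 4, 5 and 9) received vehicle. Cells were collected 24 h later from both groups. Every animal was a transgenic Sprague-Dawley rat with the GCS-EGFP germ cell reporter, so the controls carried the transgene too, and each library came from a single animal. Doxorubicin is an anthracycline chemotherapy drug that breaks DNA by poisoning topoisomerase II.

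PIWI-interacting RNAs (piRNAs) are small RNAs of the germline that guide PIWI proteins to transposon transcripts and, in the nucleus, to the transposon loci themselves. Long precursor transcripts are unwound and cut at the mitochondrial surface, loaded onto PIWI proteins, trimmed and methylated, and amplified in granules called nuage, where Tudor-domain proteins bind PIWI proteins through methylated arginines. In mice, the pathway directs new DNA methylation of transposons in fetal male germ cells, and loss of most of these genes arrests spermatogenesis. The roles given below are known mainly from mice. The libraries hold polyA RNA, so they report the protein-coding transcripts of the pathway and not the piRNAs.

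None of the 10 genes differed detectably between the groups at 24 h after doxorubicin, the only time sampled. Of the 10 genes, 0 passed an adjusted p of 0.05 in edgeR's quasi-likelihood test over all genes, where 0.112% of tested genes passed. DESeq2 and limma-voom also called 0 of them, against 0.959% and 0.141% of all genes. At an unadjusted p below 0.05 the edgeR count was also 0 of 10, against 6.76% of tested genes. A count of 0 among 10 is near the background in each of these comparisons. The 10 log2 fold changes lay between -0.05 for Tdrd1 and 0.09 for Pld6, with a median of 0.02 beside -0.0047 over all genes tested. The signs were positive for 8 genes and negative for 2, where 47.8% of tested genes were positive. The 95% intervals ran no lower than 0.889-fold and no higher than 1.16-fold in any of the 10 genes. They were taken gene by gene without adjustment, and are not the smallest change that the adjusted test could have called. Fewer germ cells of a kind and less RNA per cell cannot be told apart in such libraries.

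Total estimated counts per library were 41665800 to 58871100 in doxorubicin rats and 41253800 to 57701000 in control rats. The germ cell marker list, led by Dazl, summed to 1424 to 1469 CPM (counts scaled to the library total, with the TMM factor of each library) in doxorubicin libraries and 1364 to 1473 CPM in control libraries. The Sertoli list summed to 47.9 to 56.8 CPM in doxorubicin and 46.0 to 55.2 CPM in control libraries. The endothelial list summed to 85.0 to 95.1 CPM in doxorubicin and 74.2 to 87.3 CPM in control libraries. Most of the endothelial sum was Pecam1, with 71.6 to 83.7 CPM in doxorubicin and 63.05 to 74.5 CPM in control libraries. No other endothelial marker rose above 5.40 CPM, the level of Vwf in doxorubicin rat 2. Macrophage markers summed to 4.02 to 4.79 CPM in doxorubicin and 3.49 to 4.02 CPM in control libraries. Peritubular markers summed to 13.9 to 26.6 CPM in doxorubicin libraries, with the highest sum in rat 2, and 12.5 to 17.3 CPM in control libraries. In rat 2 Myh11 had 14.15 CPM and Des 7.32 CPM, against 5.86 to 7.92 and 3.52 to 3.67 CPM in the other doxorubicin libraries. Acta2, Cnn1 and Tagln in rat 2 lay within the range of the other doxorubicin libraries. Leydig markers summed to 4.38 to 9.71 CPM in doxorubicin and 5.88 to 8.32 CPM in control libraries. The erythroid list summed to 8.18 to 13.7 CPM in doxorubicin and 6.33 to 8.20 CPM in control libraries and was the only one of these cell type lists with a gene past the edgeR threshold, Slc4a1. Of the 6 macrophage markers, 4 stayed under 1 CPM in every library. The p53 target Eda2r, named to check the treatment, had 9.11 to 16.1 CPM in doxorubicin rats and 1.51 to 2.13 CPM in control rats. Its log2 fold change was 2.68 ± 0.18 (SE, edgeR adjusted p = 9.63e-05), with the lowest adjusted p of all genes tested. Eda2r came from a list of 8 p53 targets, chosen with earlier results of these data known. Of these 8, 3 passed edgeR, against 0.112% of all genes tested. The p53 target Cdkn1a had 15.0 to 36.0 CPM in doxorubicin rats and 5.37 to 6.14 CPM in control rats, but did not pass edgeR (adjusted p = 0.107). It passed DESeq2 (adjusted p = 6.44e-06) and passed edgeR without doxorubicin rat 2 (adjusted p = 1.02e-06).

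The promoter windows of these genes describe sequence at the members' starts, a feature that the choice of genes did not use. RefSeq windows on the GRCr8 build, 250 bases before to 50 after the annotated start, were at hand for 8 of the 10 genes, all but Piwil2 and Tdrd9. The number of CpG dinucleotides in the window was 26 for Tdrd1, 22 for Mael, 18 for Mov10l1, 15 for Piwil4 and for Asz1, 12 for Pld6, 7 for Tdrd5 and 1 for Gtsf1, with a median of 7 over 33469 windows of all genes. The E-box CACGTG, a palindrome and so the same on both strands, was found in 3 of the 8 windows and in 6.42% of all windows. TCCCGC, an E2F-type motif searched on both strands, was in 2 of the 8, Tdrd1 and Mael, and in 18.7% of all windows. CCAAT, the box bound by NF-Y and searched on both strands, was in 7 of the 8, all but Pld6, and in 37.5% of all windows. Of these 3 motifs the E-box was the least frequent over all windows, and it is printed for that reason. In mice, E-boxes and E2F sites at germline genes are bound by a repressor complex with MGA, MAX and E2F6 in cells outside the germline. These 60-base stretches hold the E-box, in capitals, of the 3 genes. They lie at chr1:265880911-265880970 on the plus strand for Tdrd1, at chr7:121949641-121949700 on the plus strand for Mov10l1 and at chr13:81029812-81029871 on the minus strand for Mael, each written 5′ to 3′ along its gene.
Tdrd1: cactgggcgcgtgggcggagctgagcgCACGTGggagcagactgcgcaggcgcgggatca
Mov10l1: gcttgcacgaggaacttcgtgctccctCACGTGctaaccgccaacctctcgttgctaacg
Mael: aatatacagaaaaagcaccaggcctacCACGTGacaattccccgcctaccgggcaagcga
The E-box begins 87 bases before the annotated start of Tdrd1, 154 bases before that of Mov10l1 and 221 bases before that of Mael. The stretches are a description of sequence and show no binding.

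Among the PIWI proteins, Piwil2 encodes the cytoplasmic slicer called MILI in mice. Piwil2 (ENSRNOG00000009871.5) had 315, 287, 275 and 291 CPM in doxorubicin rats 2, 3, 6 and 8, and 310.3, 284, 274 and 270.4 CPM in control rats 1, 4, 5 and 9. The groups overlapped almost completely, and doxorubicin rat 2 and control rat 1 stood highest. The means were 292 ± 16.9 CPM after doxorubicin and 285 ± 18.0 CPM in controls (SD, n = 4 each). On the log2 scale the difference was 0.04, with a 95% interval of -0.07 to 0.15 (edgeR adjusted p = 0.961).

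Piwil4 encodes the PIWI protein called MIWI2 in mice, which enters the nucleus of fetal male germ cells. Its transcript (ENSRNOG00000009043.8) had 142, 124, 123 and 129 CPM in doxorubicin rats 2, 3, 6 and 8, and 141, 126, 124 and 125 CPM in control rats 1, 4, 5 and 9. Here, too, doxorubicin rat 2 and control rat 1 stood above the other libraries, which lay within 123 to 129 CPM. The log2 fold change was 0.0038, the smallest in size of the 10 genes, with an interval from -0.11 to 0.12 (edgeR adjusted p = 0.998). Its estimated counts were not whole numbers in any of the 8 libraries, so some of its reads may have been shared with another gene model.

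Gtsf1 encodes a small zinc-finger protein that binds PIWI proteins and speeds their cutting of targets. Gtsf1 (ENSRNOG00000036831.4) had 41.0, 32.2, 37.6 and 37.5 CPM in doxorubicin rats 2, 3, 6 and 8, and 35.4, 34.2, 37.9 and 36.5 CPM in control rats 1, 4, 5 and 9. Both the highest and the lowest library were treated ones. The spread among doxorubicin rats was 9.73% of their mean (coefficient of variation, CV), the widest of the 10 genes in that group, and 4.39% among control rats. Between groups the log2 difference was 0.04, with an interval from -0.11 to 0.19 (edgeR adjusted p = 0.967).

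Among the genes of precursor processing, Mov10l1 encodes an RNA helicase that binds and feeds piRNA precursors to the mitochondrial nuclease. Mov10l1 (ENSRNOG00000031093.6) had 483, 502, 512 and 544 CPM in doxorubicin rats 2, 3, 6 and 8, and 501, 477, 521 and 522 CPM in control rats 1, 4, 5 and 9. The groups overlapped, and the 4 rats with the higher numbers (5, 6, 8 and 9) all stood above the 4 with the lower numbers. Its log2 fold change was 0.01, with an interval from -0.08 to 0.11 (edgeR adjusted p = 0.981).

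Pld6, also called MitoPLD or Zucchini, encodes the nuclease of the mitochondrial outer membrane that is needed to make piRNA ends. The transcript (ENSRNOG00000021657.5) had 27.3, 27.8, 28.2 and 27.9 CPM in doxorubicin rats 2, 3, 6 and 8, and 25.5, 25.9, 26.2 and 27.1 CPM in control rats 1, 4, 5 and 9. The lowest doxorubicin library lay above the highest control library, which held for 1 of the 10 genes, while 4.72% of tested genes had no overlap in either direction. The means were 27.8 ± 0.357 CPM after doxorubicin and 26.2 ± 0.669 CPM in controls (SD, n = 4 each). Its log2 fold change of 0.09 ± 0.05 (SE) did not pass (edgeR adjusted p = 0.803), and the interval ran from -0.02 to 0.19. With 1130 to 1580 estimated counts per library, none of them whole numbers, Pld6 was also the member with the fewest counts.

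Asz1, known as GASZ, encodes a scaffold protein that holds the nuage at mitochondria. In doxorubicin rats 2, 3, 6 and 8 Asz1 (ENSRNOG00000060343.2) had 76.7, 76.7, 73.9 and 80.5 CPM, and in control rats 1, 4, 5 and 9 it had 72.5, 78.4, 78.6 and 73.1 CPM. The groups were interleaved, and the log2 fold change was 0.02, with an interval from -0.07 to 0.12 (edgeR adjusted p = 0.972).

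Tdrd5 encodes a Tudor-domain protein that binds piRNA precursors and is needed for nuage to assemble. Tdrd5 (ENSRNOG00000004018.8) had 515, 477, 433 and 454 CPM in doxorubicin rats 2, 3, 6 and 8, and 535, 473, 425 and 410.4 CPM in control rats 1, 4, 5 and 9. Control rat 1 was the highest library and control rat 9 the lowest, 1.30-fold apart, the widest ratio among the 10 genes. Within each group, the rats numbered 1 to 4 stood above those numbered 5 to 9. Doxorubicin and control differed by 0.03 on the log2 scale, and the interval from -0.17 to 0.22 was the widest of the 10 (edgeR adjusted p = 0.982).

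**Figure D1:**
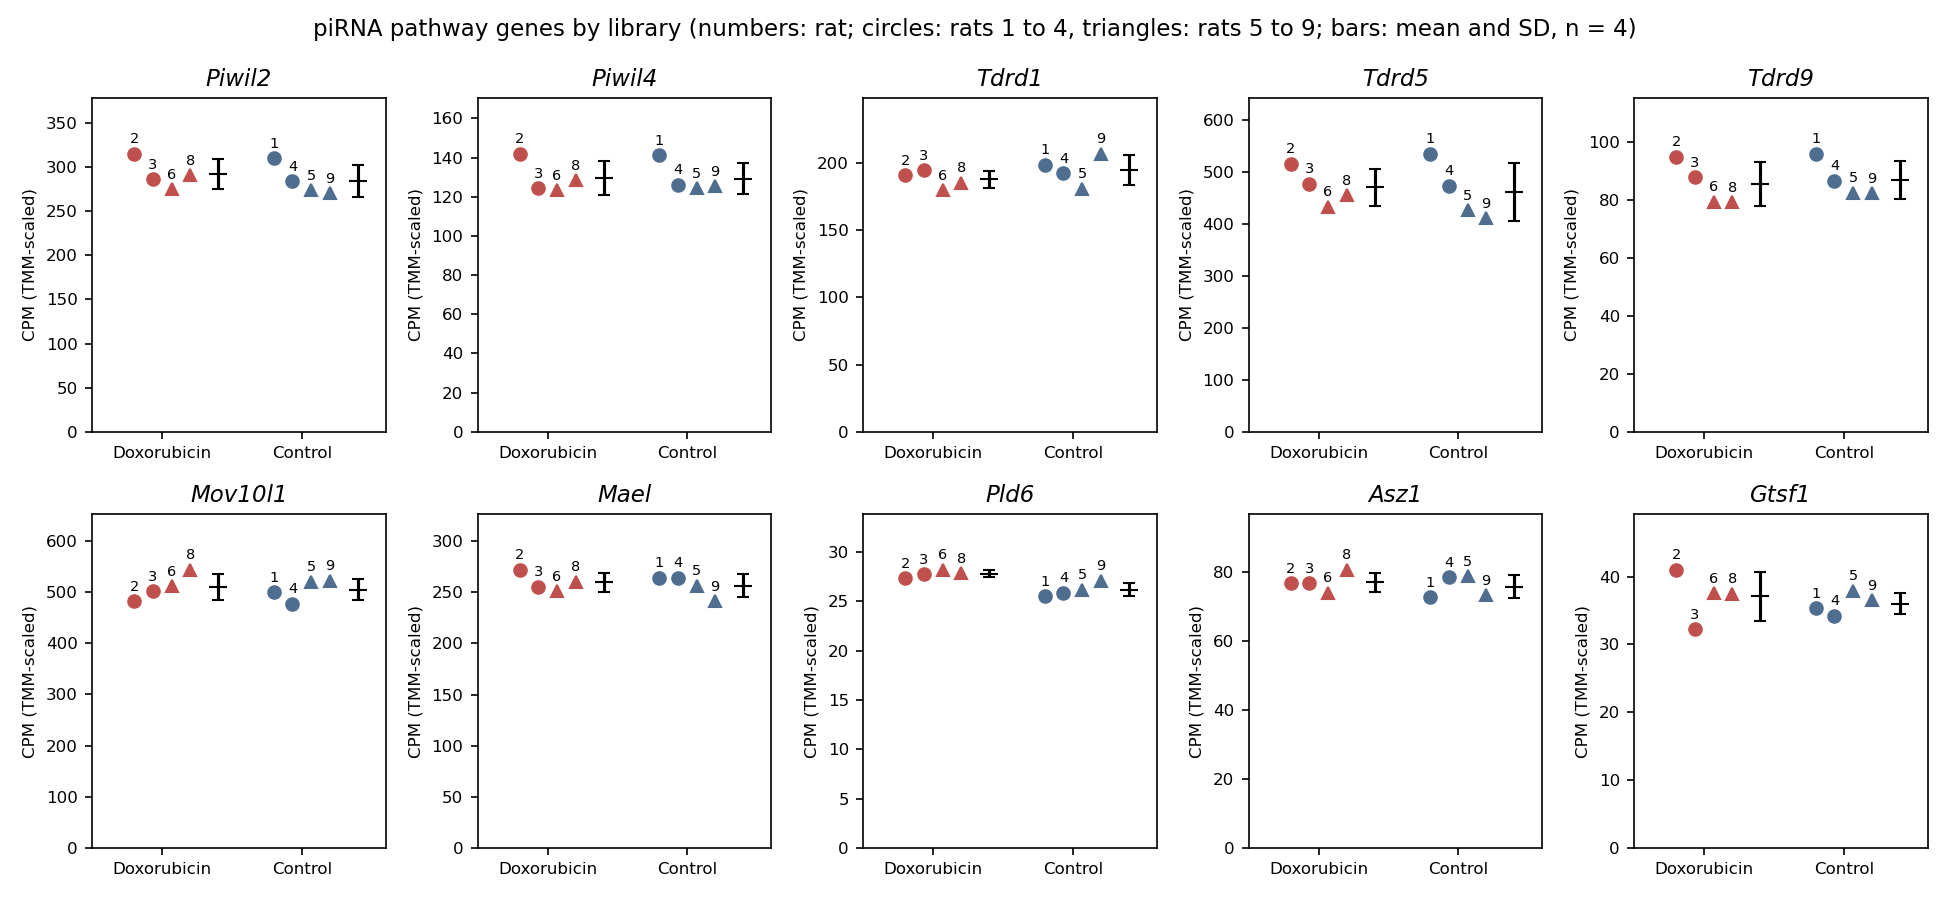
Each panel plots 1 gene, with TMM-scaled CPM on a vertical axis that starts at 0 and the doxorubicin libraries left of the control libraries. Points are libraries, numbered by rat, with circles for rats 1 to 4 and triangles for rats 5 to 9, and the bars give the mean and SD of 4 rats. The groups overlap in every panel but that of Pld6, where doxorubicin libraries sit at 27.3 to 28.2 CPM and control libraries at 25.5 to 27.1 CPM.

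The remaining 3 genes act with PIWI proteins in nuage. Tdrd1 encodes a Tudor-domain partner of MILI. Tdrd1 (ENSRNOG00000017064.6) had 191, 195, 179.8 and 186 CPM in doxorubicin rats 2, 3, 6 and 8, and 199, 193, 181 and 207 CPM in control rats 1, 4, 5 and 9. Its highest library was control rat 9 and its lowest doxorubicin rat 6, but the groups overlapped. The means were 188 ± 6.57 CPM after doxorubicin and 195 ± 11.1 CPM in controls (SD, n = 4 each), and the log2 fold change was -0.05, with an interval from -0.15 to 0.04 (edgeR adjusted p = 0.920).

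Tdrd9 encodes an RNA helicase with a Tudor domain that works with MIWI2. The transcript (ENSRNOG00000053631.2) had 94.9, 87.8, 79.3 and 79.2 CPM in doxorubicin rats 2, 3, 6 and 8, and 95.9, 86.6, 82.4 and 82.2 CPM in control rats 1, 4, 5 and 9. As for Tdrd5, every rat numbered 1 to 4 stood above every rat numbered 5 to 9, treated or not. Its log2 fold change was -0.02, with an interval from -0.17 to 0.12 (edgeR adjusted p = 0.980).

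Mael encodes maelstrom, a nuage protein needed for transposon silencing. Mael (ENSRNOG00000003790.6) had 272, 256, 251 and 260.3 CPM in doxorubicin rats 2, 3, 6 and 8, and 264, 264, 256 and 241 CPM in control rats 1, 4, 5 and 9. Doxorubicin rat 2 was the highest library and control rat 9 the lowest, 1.13-fold apart. At 0.02, the log2 fold change of Mael had an interval from -0.07 to 0.10 (edgeR adjusted p = 0.979), and its standard error of 0.04 was the smallest of the 10.

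Levels of the 10 genes also varied between rats of the same group. The CV among rats ran from 1.28% for Pld6 to 9.73% for Gtsf1 in the doxorubicin group, and from 2.56% for Pld6 to 12.1% for Tdrd5 in the control group. Counting error, taken from the lowest library of each gene, was smaller, at 0.682% to 2.97%, except that the CV of Pld6 lay under its own counting error of 2.97% in both groups. For 4 genes, Piwil2, Piwil4, Tdrd5 and Tdrd9, the pair of highest libraries was doxorubicin rat 2 and control rat 1. These 4 were singled out after their values were seen, and the same pair was highest for 12.2% of all genes tested. In doxorubicin rat 2 and control rat 1, Tdrd5 deviated from its mean over the 8 libraries by 0.15 and 0.21 on the log2 scale, Tdrd9 by 0.14 and 0.16, Piwil4 by 0.14 and 0.13, and Piwil2 by 0.13 and 0.11. Mov10l1 went the other way, at -0.07 and -0.02.

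**Figure D2:**
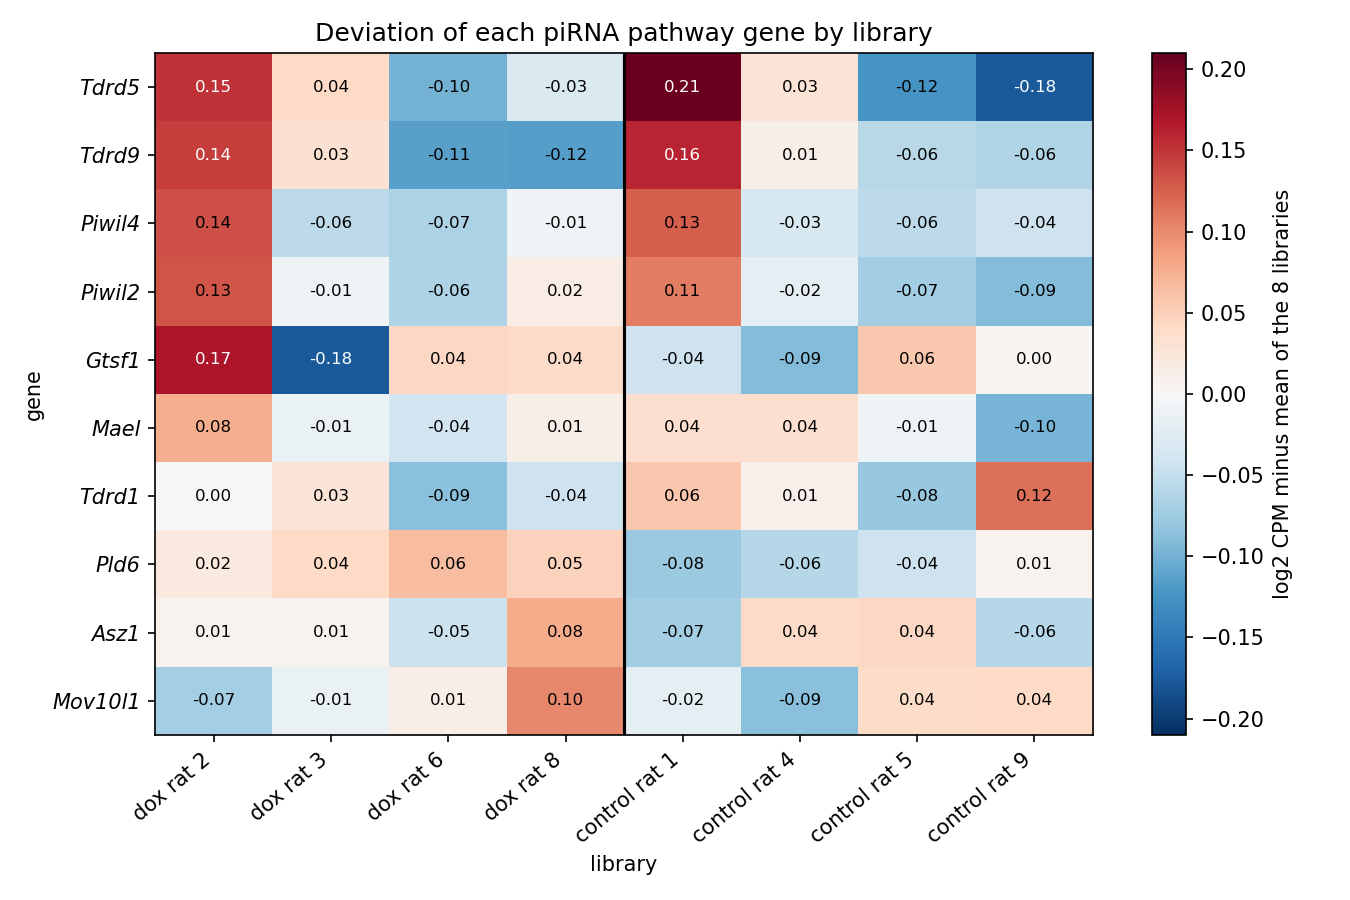
Each cell gives the log2 CPM of 1 gene (vertical axis) in 1 library (horizontal axis) minus that gene's mean over the 8 libraries, from blue (lower) to red (higher), with doxorubicin libraries left of the black line and control libraries right of it. Tdrd5, Tdrd9, Piwil4 and Piwil2 are 0.11 to 0.21 above their means in doxorubicin rat 2 and control rat 1, and no column block separates the groups.

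Some markers of spermatogonial stages also stood apart in these 2 libraries. For 3 of the 7 genes of the differentiating spermatogonia list, the 2 lowest libraries were this pair, against 11.3% of all genes tested. For 0 of the 7 were the 2 highest libraries this pair. Rhox13 of that list was highest in doxorubicin rat 2 (36.2 CPM, against 31.8 to 34.3 CPM in the other libraries). Kit, the receptor that marks differentiating spermatogonia, had 57.9 CPM in doxorubicin rat 2 and 71.6 to 83.3 CPM in the other doxorubicin rats, and 70.7 CPM in control rat 1 against 82.2 to 89.8 CPM in the other controls. The summed level of that list was 328 to 392 CPM in doxorubicin libraries (328 in rat 2) and 338 to 411 CPM in control libraries (338 in rat 1). Of the 10 genes of the undifferentiated list, 2 had the pair as their 2 highest libraries (Etv5 and Lhx1) and 2 as their 2 lowest (Nanos2 and Nanos3). Etv5, a transcription factor downstream of GDNF, had 470 CPM in doxorubicin rat 2 and 361 to 428 CPM in the other doxorubicin rats, and 509 CPM in control rat 1 against 355 to 384 CPM in the other controls. Nanos2 had 12.6 CPM in doxorubicin rat 2 and 13.8 to 17.5 CPM in the other doxorubicin rats. It had 13.65 CPM in control rat 1 against 14.8 to 16.8 CPM in the other controls. The summed level of the undifferentiated list was 1352 to 1560 CPM in doxorubicin libraries (1398 in rat 2) and 1368 to 1559 CPM in control libraries (1559 in rat 1). No marker of either list was at 0 in any library or passed edgeR, and the part of stage markers in the levels of the 4 genes was not tested.

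Rat numbers also divided some members, although the labels give no batch. Tdrd5 had 473 to 535 CPM in rats 1 to 4 and 410.4 to 454 CPM in rats 5 to 9, and Tdrd9 had 86.6 to 95.9 CPM in rats 1 to 4 and 79.2 to 82.4 CPM in rats 5 to 9. Mov10l1 had 477 to 502 CPM in rats 1 to 4 and 512 to 544 CPM in rats 5 to 9. The other 7 genes overlapped between these sets of rats. The share of all tested genes divided in this way was not computed, so the division cannot be called particular to these genes. Because each set holds 2 doxorubicin and 2 control rats, the comparison could be made within each. Within rats 1 to 4 the 10 log2 fold changes ran from -0.02 to 0.11, and within rats 5 to 9 from -0.08 to 0.09. Of the 10 genes, 0 passed edgeR in either set, where 0% of all genes passed within rats 1 to 4 and 0.546% within rats 5 to 9. At an unadjusted p below 0.05 the edgeR count was likewise 0 of 10 in each set, against 3.58% and 6.94% of all genes in these sets. These counts, too, are near the background. With 2 rats a group, even Eda2r did not pass within rats 1 to 4 (edgeR adjusted p = 0.524), so the count of 0 there says little. Pld6 had log2 fold changes of 0.11 and 0.08 in the 2 sets, and Tdrd1 of -0.01 and -0.08.

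The wider pathway was followed through 24 further genes, of which Spocd1 was not analysed here and Gtsf1l fell below the filter on low counts. Of the 22 tested, 0 passed edgeR over all genes, and DESeq2 and limma-voom also called 0, where 0.112%, 0.959% and 0.141% of all genes passed the 3 tests. A count of 0 among 22 is therefore near the background. At an unadjusted p below 0.05, edgeR gave 2 higher and 1 lower, against 4.19% and 2.56% of all genes tested. Positive log2 fold changes numbered 12 and negative ones 10, with a median of 0.0036, where 47.8% of tested genes were positive.

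Tdrkh, the mitochondrial Tudor protein that brings PIWI proteins to the trimming exonuclease, had 93.8, 85.9, 83.8 and 84.2 CPM in doxorubicin rats 2, 3, 6 and 8, and 71.9, 82.4, 77.1 and 76.5 CPM in control rats 1, 4, 5 and 9. Again no doxorubicin library lay below any control library, which held for 2.77% of tested genes. Its log2 fold change was 0.18 ± 0.05 (SE), with an unadjusted p of 0.0044 that did not pass adjustment (edgeR adjusted p = 0.323, DESeq2 adjusted p = 0.145). Within rats 1 to 4 and rats 5 to 9 it was 0.23 and 0.13. For Pnldc1, the trimming exonuclease itself, the log2 fold change was 0.06 (interval -0.05 to 0.17), and for Henmt1, the methyltransferase that protects piRNA ends, 0.08 (interval -0.09 to 0.25).

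Mybl1 encodes A-MYB, the transcription factor that drives piRNA precursors and piRNA pathway genes in mouse spermatocytes. It had 10.2, 8.08, 6.84 and 7.09 CPM in doxorubicin rats 2, 3, 6 and 8, and 5.79, 7.12, 5.42 and 5.40 CPM in control rats 1, 4, 5 and 9. Doxorubicin rats 6 and 8 lay below control rat 4, so the groups overlapped. The fitted log2 fold change was 0.44 ± 0.14 (SE, edgeR adjusted p = 0.416; DESeq2 adjusted p = 0.146). Btbd18, a nuclear protein needed for the expression of pachytene piRNA precursors in mice, lay lower in all doxorubicin libraries (10.9 to 12.0 CPM) than in all control libraries (12.2 to 13.5 CPM), as did 1.95% of tested genes. Btbd18 had a fitted log2 difference of -0.17 ± 0.07 (SE, edgeR adjusted p = 0.632). With Tdrkh and Mybl1 it made up the 3 genes at an unadjusted p below 0.05.

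Piwil1, the PIWI protein called MIWI that acts in meiotic and later cells in mice, had 6.15 to 7.38 CPM in doxorubicin rats and 6.48 to 8.50 CPM in control rats, and a log2 fold change of -0.06 (interval -0.30 to 0.18). Ddx4, the helicase Vasa of nuage, had 386 to 398 CPM in doxorubicin rats and 351 to 409 CPM in control rats, and a log2 fold change of 0.05 (interval -0.04 to 0.14). Gpat2, a mitochondrial outer membrane protein that binds MILI, had one of 0.07 (interval -0.01 to 0.16, edgeR adjusted p = 0.797). Estimated counts of Piwil1 and Gpat2 were not whole in any library, so their reads, too, may have been shared with another gene model. The same holds for Eda2r and Cdkn1a.

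Genes that act at the silenced loci were less precisely measured where their levels were low. Dnmt3l, the cofactor of new DNA methylation, had 0.597 to 0.763 CPM in doxorubicin rats and 0.504 to 0.827 CPM in control rats, with a log2 fold change of -0.06 and an interval from -0.52 to 0.40. Dnmt3c, the rodent methyltransferase of young transposon promoters, had 1.03 to 1.37 CPM in doxorubicin rats and 1.18 to 1.64 CPM in control rats, with a log2 fold change of -0.23 and an interval from -0.60 to 0.14. Its estimated counts were not whole in any library, so its reads may have been shared with another gene model. Morc1, a nuclear ATPase needed to silence transposons in mouse male germ cells, had 9.67 to 10.9 CPM in doxorubicin rats and 10.2 to 11.2 CPM in control rats, with a log2 fold change of -0.03 and an interval from -0.19 to 0.14.

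**Figure D3:**
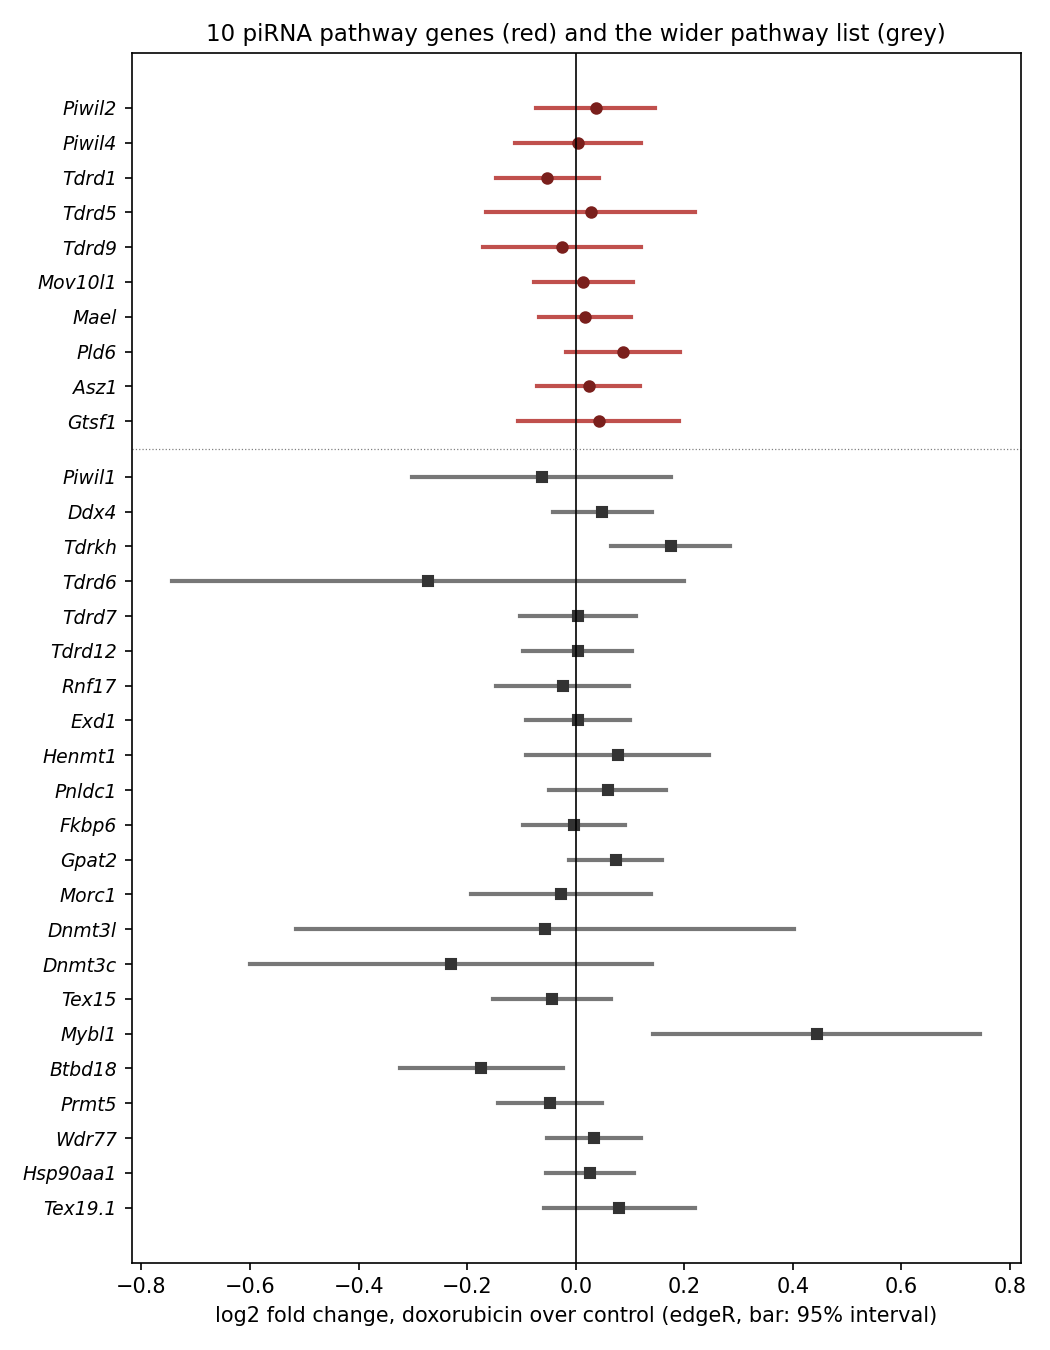
Points give the log2 fold change of doxorubicin over control from edgeR (horizontal axis) for each gene (vertical axis), and bars give 95% intervals, in red for the 10 piRNA pathway genes and in grey for the 22 tested genes of the wider list. All 10 red intervals include 0 and stay within -0.17 to 0.22, while the grey intervals of Tdrkh, Mybl1 and Btbd18 exclude 0 before any adjustment.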

How the data were processed

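The values are the authors' deposited estimated counts, 1 row a gene and 1 column a library, with no normalization. PolyA-enriched libraries were made from PicoPure-extracted RNA, per the labels' protocols. Tools listed in the submitters' processing notes are kallisto 0.48.0, featureCounts, Trimmomatic, fastp 0.23.2, DESeq2 1.40.2, MultiQC 1.12 and FastQC 0.11.9, with the build rn6. Their roles, the strand setting and the treatment of multi-mapping reads are not stated there.

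Values were rounded to whole numbers. In R 4.3.3, edgeR 4.0.16 (filterByExpr, TMM, robust quasi-likelihood F test, no covariate) tested doxorubicin against control over 16976 genes, with Benjamini-Hochberg adjustment and a threshold of 0.05. DESeq2 1.42.0, limma 3.58.1 (voom), other scalings and filters, a fit that was not robust, the set of rat numbers as a covariate, fits within each set, and leaving out each library were alternatives. The procedure was tested on simulated data. SD is over 4 rats, and SE and 95% intervals come from the F test. CPM are TMM-scaled and not per length, so levels are not compared between genes. All 8 libraries counted as separate samples because the labels give each its own rat number. Every pair of libraries also differed beyond sampling noise (lowest chi-square per degree of freedom, 6.57), which by itself cannot show separate animals.

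Named genes were the 10 members, 8 genes of the wider list whatever their result (Spocd1, 1 of them, was not analysed here, which leaves 23 named genes), the 4 others of that list with the smallest p, and Eda2r and Cdkn1a. Members, lists and the split by rat number were chosen with earlier results of these data known. Tex19 was matched to Tex19.1 through RefSeq synonyms. Promoter sequences are RefSeq's on GRCr8; no coordinates of rn6 are given.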

Additional observations from a re-analysis of the deposited data

Results flagged for a closer look

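Of 46 groups of 4 libraries examined (23 named genes in both groups), 4 held a library far from the other 3, where chance gives about 1 in 20 groups, or 2.3. Piwil4 stood at 141 CPM in control rat 1, against 124 to 126 CPM in the other controls. In doxorubicin rat 8, Ddx4 stood at 398 CPM, against 386 to 388 CPM in the other treated rats. Doxorubicin rat 2 had 9.67 CPM of Morc1, against 10.9 CPM in each of the others, and 36.0 CPM of Cdkn1a, against 15.0 to 16.9 CPM.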

How the results depend on the processing

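In all 18 alternatives 0 of the 10 genes passed, the lowest adjusted p being 0.619, and 0 of the wider list passed. Log2 fold changes of the 10 stayed within -0.09 to 0.11, and 19 of 180 values, in 7 genes, changed sign. These were Piwil4 scaled by library size only (-0.0043), Tdrd5 and Tdrd9 within rats 1 to 4 (-0.016 and 0.0087), and fits without a library, whose values ran from -0.0018 to 0.081 for Piwil2, -0.043 to 0.049 for Piwil4, -0.020 to 0.11 for Tdrd5, -0.080 to 0.027 for Tdrd9, -0.018 to 0.040 for Mov10l1, -0.0070 to 0.038 for Mael and -0.010 to 0.11 for Gtsf1. In the wider list Morc1 (0.068) and Dnmt3l (0.13) changed sign within rats 5 to 9, and without a library Piwil1 ran from -0.11 to 0.036, Morc1 from -0.049 to 0.014 and Dnmt3l from -0.16 to 0.049. The members' median ran from -0.0077 (without doxorubicin rat 2) to 0.040. The cause was not tested.

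Over all genes edgeR called 19, against 170 with DESeq2, 53 without robust fitting, 61 with the rat-number covariate, 92 within rats 5 to 9, 0 within rats 1 to 4 (613 at an unadjusted p below 0.05) and 1 to 62 without a library. No paired analysis was possible because the groups share no rat number. Depth limits genes such as Dnmt3l, with 21 to 47 counts per library, and Gtsf1l, with 0 to 6, which was not tested.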

Other observations

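Several genes of the wider pathway list had their 2 lowest levels in doxorubicin rat 2 and control rat 1. These were the libraries in which Piwil2, Piwil4, Tdrd5 and Tdrd9 were highest. This held for 5 of the 22 tested (Tex15, Rnf17, Tdrd12, Prmt5 and Henmt1), named after their values were seen, against 11.3% of all genes tested. Tex15, a nuclear factor of transposon silencing in mice, had 933 CPM in doxorubicin rat 2 and 1040.4 to 1067 CPM in the other doxorubicin rats, and 969 CPM in control rat 1 against 1078 to 1101 CPM in the other controls. Rnf17, a Tudor-domain protein, had 65.0 CPM in doxorubicin rat 2 and 68.7 to 74.4 CPM in the others, and 65.3 CPM in control rat 1 against 72.1 to 74.9 CPM. Tdrd7 and Tex19.1 were highest in this pair, with 103 and 331 CPM in doxorubicin rat 2 and 105 and 307 CPM in control rat 1. Tex19.1 has a close paralog, Tex19.2, and its estimated counts were not whole in any library.

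For Pld6, edgeR estimated a gene-wise biological coefficient of variation of 5.51%, fitted with information from other genes. The CV measured among rats was 1.28% after doxorubicin and 2.56% in controls. The quasi-likelihood F test did not take the gene-wise value of 5.51% as its dispersion.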
